A study of Mus musculus with 22 samples.

Results

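Tenascin C (TNC) and tumour necrosis factor alpha (TNF), each given alone to the same kind of cultured cells, were compared head to head. The comparison holds the 4 arrays whose treatment label is exogenous TNC and the 3 whose treatment label is TNF, 7 of the 22 arrays of the study, and no measured value entered that choice. The cells were smooth muscle cells freed by enzymes from the suprarenal aorta of male C57BL/6 mice that lack the Tnc gene (TNC-KO), grown in DMEM with serum. One group received TNC at 10 µg/mL without TNF, and the other received TNF at 10 ng/mL without TNC. A further 3 arrays of unstimulated TNC-KO cells and 4 of TNC-KO cells given both agents at these doses entered the same fit, and the aortic tissue arrays were not used. All 14 arrays are of knockout cells, so no group holds cells that make their own TNC from an intact gene. The study describes independent cultures, 3 without and 4 with TNC, but not how many mice they came from or whether the same cultures were divided between TNF and no TNF, so the p-values measure the spread between cultures.

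Several limits come from the labels. The design text gives 24 h of TNF and no duration for TNC, and hours on the sample labels, which run from 23 to 36 with a different value on each array, were not used. Titles of the group with TNC alone name TNC or TNF, and its treatment label, exogenous TNC, was followed. A dose of a matrix protein and a dose of a cytokine share no scale, so the size of either response says nothing about potency. The Tnc signal itself was 94.1, 83.8 and 92.7 with TNF, 128, 90.6, 107 and 133 with TNC and 122, 144 and 100.4 in unstimulated cultures. These groups overlapped, and the direct difference was 0.33 on the log2 scale (adjusted p = 0.129). Where this probe set lies relative to the deleted part of the gene is not known here, so it does not check the genotype, and added protein carries no transcript.

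TNC is a large, multi-armed glycoprotein of the extracellular matrix that arteries deposit at sites of injury and load. It binds integrins and is an agonist of Toll-like receptor 4. TNF binds its own receptors on the cell surface and activates the transcription factor NF-kB and the MAP kinases, as Toll-like receptors also do. Interferons act through JAK kinases and STAT factors on a large group of antiviral genes, and many cell types make interferon beta after TNF or Toll-like receptor signals. Smooth muscle cells that meet such signals typically give up contractile proteins and take up secretion of chemokines and matrix proteases.

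Signals are the authors' array intensities, fitted as log2 values in limma, and a gene was called at a Benjamini-Hochberg adjusted p under 0.05. Differences are written as TNC alone minus TNF alone, so a negative value is higher with TNF, and folds are ratios of geometric means. A median given for a gene list is taken over all its tested genes, called or not. The precision rests on the number of arrays. Replicate arrays correlated at 0.9619 to 0.9694, and on the log2 scale genes had a median SD of 0.126 between TNF arrays and of 0.157 between TNC arrays. Of 15534 tested genes, 2820 (18.2%) were called higher with TNC and 1620 (10.4%) higher with TNF. At least 2-fold differences were called for 399 genes (2.57%) higher with TNC and 440 (2.83%) higher with TNF. The arrays of both groups did not overlap for 23.9% of genes in the direction of TNC and 14.7% in the direction of TNF. Against unstimulated cultures, TNC changed 31.8% of genes, raising 2506 (16.1%) and lowering 2435 (15.7%), and TNF changed 34.6%, raising 2214 (14.3%) and lowering 3156 (20.3%). Changes of at least 2-fold were called for 2.98% raised and 3.56% lowered by TNC and for 4.35% raised and 5.16% lowered by TNF. The splits depend on the scaling. With every array centred on its median they were 3986 raised and 1246 lowered for TNC, 2620 and 1941 for TNF, and 2833 higher with TNC against 1133 higher with TNF head to head. The median of all tested genes then moved from -0.03 to 0.14 for TNC, from -0.06 to 0.05 for TNF and from 0.05 to 0.11 head to head. The comparisons with unstimulated cultures share those 3 arrays with each other and the stimulated arrays with the head to head comparison, so their values are given side by side only.

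**Figure D1:**
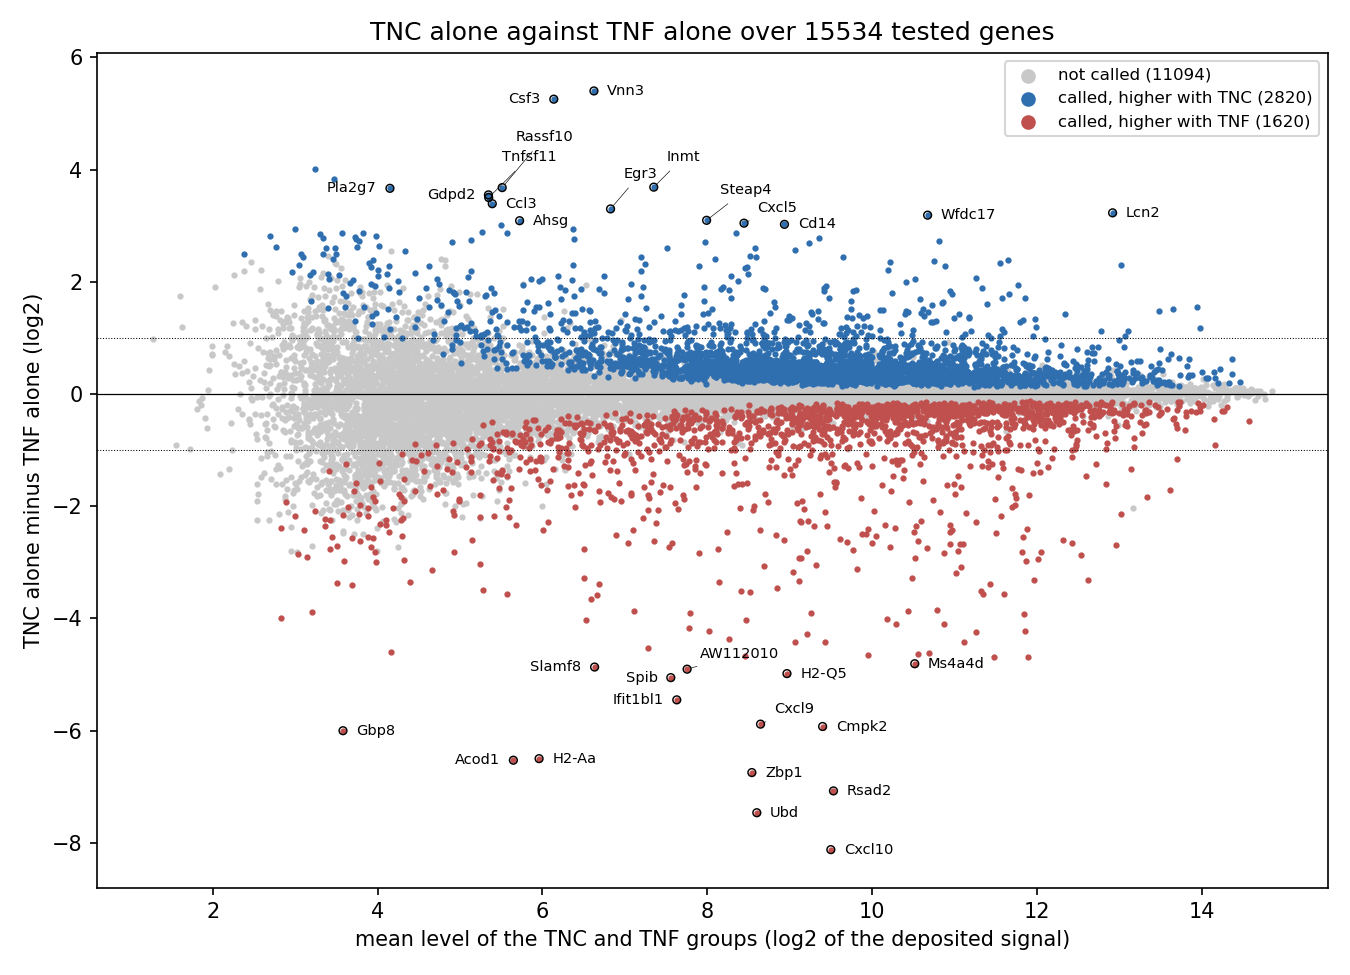
Each dot is 1 of 15534 tested genes, with its mean log2 signal over the TNC and TNF groups on the x axis and TNC alone minus TNF alone (log2) on the y axis. Blue dots were called higher with TNC (2820), red dots higher with TNF (1620), dotted lines mark 2-fold, and the circled genes, from Cxcl10 at -8.12 to Vnn3 at 5.40, are the 15 largest differences each way among brighter genes whose arrays did not overlap.

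Of 37 gene lists, the antiviral interferon-stimulated genes had the largest median difference. Of 30 tested genes (33 on the list), 29 were called higher with TNF, where 10.4% of all genes were, and 1 was higher with TNC. Their median difference was -3.68 on the log2 scale, against 0.05 over all tested genes. Against unstimulated cultures TNF raised 29 of the 30 (median 3.60), while TNC raised 2 and lowered 9 (median -0.23). Over all tested genes TNF raised 14.3%, and TNC raised 16.1% and lowered 15.7%. Ifit2, which binds viral RNA and blocks its translation, read 13837, 14707 and 14971 with TNF, 511, 582, 623 and 550.2 with TNC and 737, 731 and 755 without stimulus. The TNF arrays stood 25.7-fold above the TNC arrays (log2 -4.68, SE 0.08, adjusted p = 2.94e-11), and no TNC array reached the lowest unstimulated array. With both agents together Ifit2 read 989.9, 1088, 1035 and 1195, below every array with TNF alone. Rsad2 encodes viperin, an enzyme that makes a chain-terminating nucleotide against viral polymerases. Its signal was 8249, 8680 and 8835 with TNF, 68.1, 84.5, 40.4 and 70.7 with TNC and 321, 117 and 167 unstimulated. That is a 135-fold gap between the stimuli (log2 -7.07, SE 0.32, or -6.48 with 32 added to every value), with every TNC array below every unstimulated array (-1.53, adjusted p = 0.00336). Cmpk2, the mitochondrial nucleotide kinase that lies beside Rsad2, differed by -5.93, and Zbp1, a sensor of Z-form nucleic acid, by -6.75. Isg20, an exonuclease, was raised by both stimuli, by 1.02 with TNC and 3.76 with TNF, and still differed by -2.74. Ifi27, the member higher with TNC and named after its values were seen, was lowered by TNF from 7487, 6273 and 7100 to 2463, 2276 and 2226. It read 5031, 6210, 6051 and 5796 with TNC, above every TNF array (1.31).

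Motif letters before the start site were searched in RefSeq promoters of GRCm38.p6, and the sequences here show where they lie in 2 of the genes with the widest gap. The search covered 250 bases before to 50 after each start on both strands, and 12355 of the 15534 tested genes had a promoter in the table. The interferon-stimulated response element, spelled GAAA, any 2 bases, GAAA, was present in 3.63% of genes with a promoter. It was present in 11 of 20 antiviral genes (55.0%), in 6 of 7 interferon-inducible GTPase genes (85.7%) and in 18.1% of genes called at least 2-fold higher with TNF, against 2.73% of those at least 2-fold higher with TNC. The NF-kB letters, GGGA, any 2 bases, TTCC, were in 1.70% of all, 4.25% of the genes at least 2-fold higher with TNF and 2.05% of those at least 2-fold higher with TNC. The AP-1 letters TGANTCA were in 7.11%, 13% and 7.85% of the same sets. These are descriptions without a test, and a match is not a bound site. Cxcl10 lies on the minus strand with its 250 upstream bases at chr5:92348890-92349139. Rsad2 is also on the minus strand, at chr12:26456453-26456702. Both are written 5′ to 3′ on the gene's strand up to the base before the start, and capitals mark the matches. In Cxcl10 they are, in order, the response element at 213, the NF-kB letters at 159 and the AP-1 letters at 74 bases before the start. In Rsad2 they are the response element on the opposite strand at 120 and the AP-1 letters at 87 bases before it. These promoters, like those printed further on, were chosen after the matches were seen.
Cxcl10: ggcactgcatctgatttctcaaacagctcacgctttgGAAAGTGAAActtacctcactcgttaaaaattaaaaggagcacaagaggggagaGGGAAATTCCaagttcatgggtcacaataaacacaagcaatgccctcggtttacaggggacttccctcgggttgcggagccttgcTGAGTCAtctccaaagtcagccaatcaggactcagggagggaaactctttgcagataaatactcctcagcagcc
Rsad2: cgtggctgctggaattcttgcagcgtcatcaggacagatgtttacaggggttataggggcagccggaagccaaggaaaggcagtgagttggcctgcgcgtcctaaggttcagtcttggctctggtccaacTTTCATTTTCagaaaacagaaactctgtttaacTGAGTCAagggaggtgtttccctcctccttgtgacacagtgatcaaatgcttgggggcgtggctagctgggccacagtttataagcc

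The interferon-inducible GTPases attack the membranes of vacuoles that hold intracellular pathogens. All 10 tested were called higher with TNF, where 10.4% of all genes were, at a median difference of -3.35. Gbp3 read 14298, 14076 and 14563 with TNF, 878, 1003, 989 and 929 with TNC and 1152, 947 and 1102 unstimulated, a 15.1-fold gap (log2 -3.92, SE 0.07). The TNC and unstimulated arrays overlapped. Gbp7 differed by -3.39, Igtp by -4.24 and Irgm2 by -3.57, and for Gbp7 and Igtp the change with TNC did not pass the test (-0.22 and -0.22). Gbp2 was raised by TNC (1.08) and far more by TNF (4.39). Gbp8 had the largest log2 gap among them, -6.00, but is dim, and with 32 added to every value before the log the gap was -1.85. Ifit1bl1, a further member of the Ifit family, read 1034, 1266 and 1717 with TNF and 26.3, 46.9, 26.9 and 24.1 with TNC. All TNF arrays were above all TNC arrays (-5.45).

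The factors that carry interferon signals split less widely. Of 16 interferon regulatory factors, STATs and their brakes, 11 were called higher with TNF and 2 higher with TNC, at a median of -0.66. Of all tested genes 10.4% were called higher with TNF and 18.2% higher with TNC. Irf1, a transcription factor that NF-kB induces, read 6433, 6396 and 6356 with TNF, 1385, 1473, 1468 and 1372 with TNC and 752, 769.7 and 845 unstimulated. The 3 groups did not overlap. Both stimuli raised Irf1 (3.02 with TNF, 0.85 with TNC), and the difference between them was -2.17 (SE 0.06, adjusted p = 6.28e-10). Irf7, the factor that amplifies interferon production, differed by -4.63; TNF raised it by 4.27, and the change with TNC was -0.36 (adjusted p = 0.334). Stat2, a subunit of the complex that binds the response element, followed the same order (-2.46, with 2.39 for TNF and -0.07 for TNC, the latter not called). Jak2, a kinase of cytokine receptors, was raised by both, by 2.21 with TNF and 1.21 with TNC, and was called higher with TNF. Socs3, a feedback inhibitor of the interleukin-6 receptor pathway and a list member outside the rule for named genes, named after its values were seen, was 0.86 higher with TNC. 

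Antigen presentation genes were also higher with TNF. In the MHC class I list, which holds the peptide transporters and immunoproteasome subunits, 11 of 13 tested genes were called higher with TNF and 0 with TNC (median -1.89). Of all tested genes 10.4% were called higher with TNF. Against unstimulated cultures TNF raised all 13 and TNC raised 9. The median change over all 13 was 0.69 with TNC and 2.29 with TNF. Over all tested genes TNF raised 14.3% and TNC 16.1%. Psmb8, the catalytic immunoproteasome subunit that trims peptides for class I, read 8662, 8855 and 8546 with TNF, 719, 742, 822 and 750.0 with TNC and 499, 399 and 448 unstimulated. Each group stood apart from the others, and TNF exceeded TNC 11.5-fold (-3.52, SE 0.09). Psmb9 differed by -3.86, Psmb10 by -2.82 and Tap2, a subunit of the peptide pump, by -2.10. H2-Q5, a nonclassical class I gene, was among the 15 largest differences (-4.98), and near-identical H2 genes can share probes. Of 7 class II genes 6 were called higher with TNF. In bulk cultures, here and for the later lists, fewer cells of a type and less RNA per cell cannot be told apart. Cd74, the invariant chain that guides class II molecules, differed by -3.36. H2-Aa, a class II alpha chain, read 609, 622 and 547 with TNF, 17.2, 12.7, 1.01 and 8.24 with TNC and 76.5, 35.6 and 42.2 unstimulated. The TNC arrays were all below the unstimulated ones (-2.90, adjusted p = 0.013), at signals near the floor of the array. Other genes with wide gaps towards TNF were Ubd, a ubiquitin-like modifier (-7.46), Acod1, the itaconate-making enzyme (-6.53), Spib, an Ets transcription factor (-5.06), and Slamf8 (-4.87), Ms4a4d (-4.81) and AW112010 (-4.91).

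**Figure D2:**
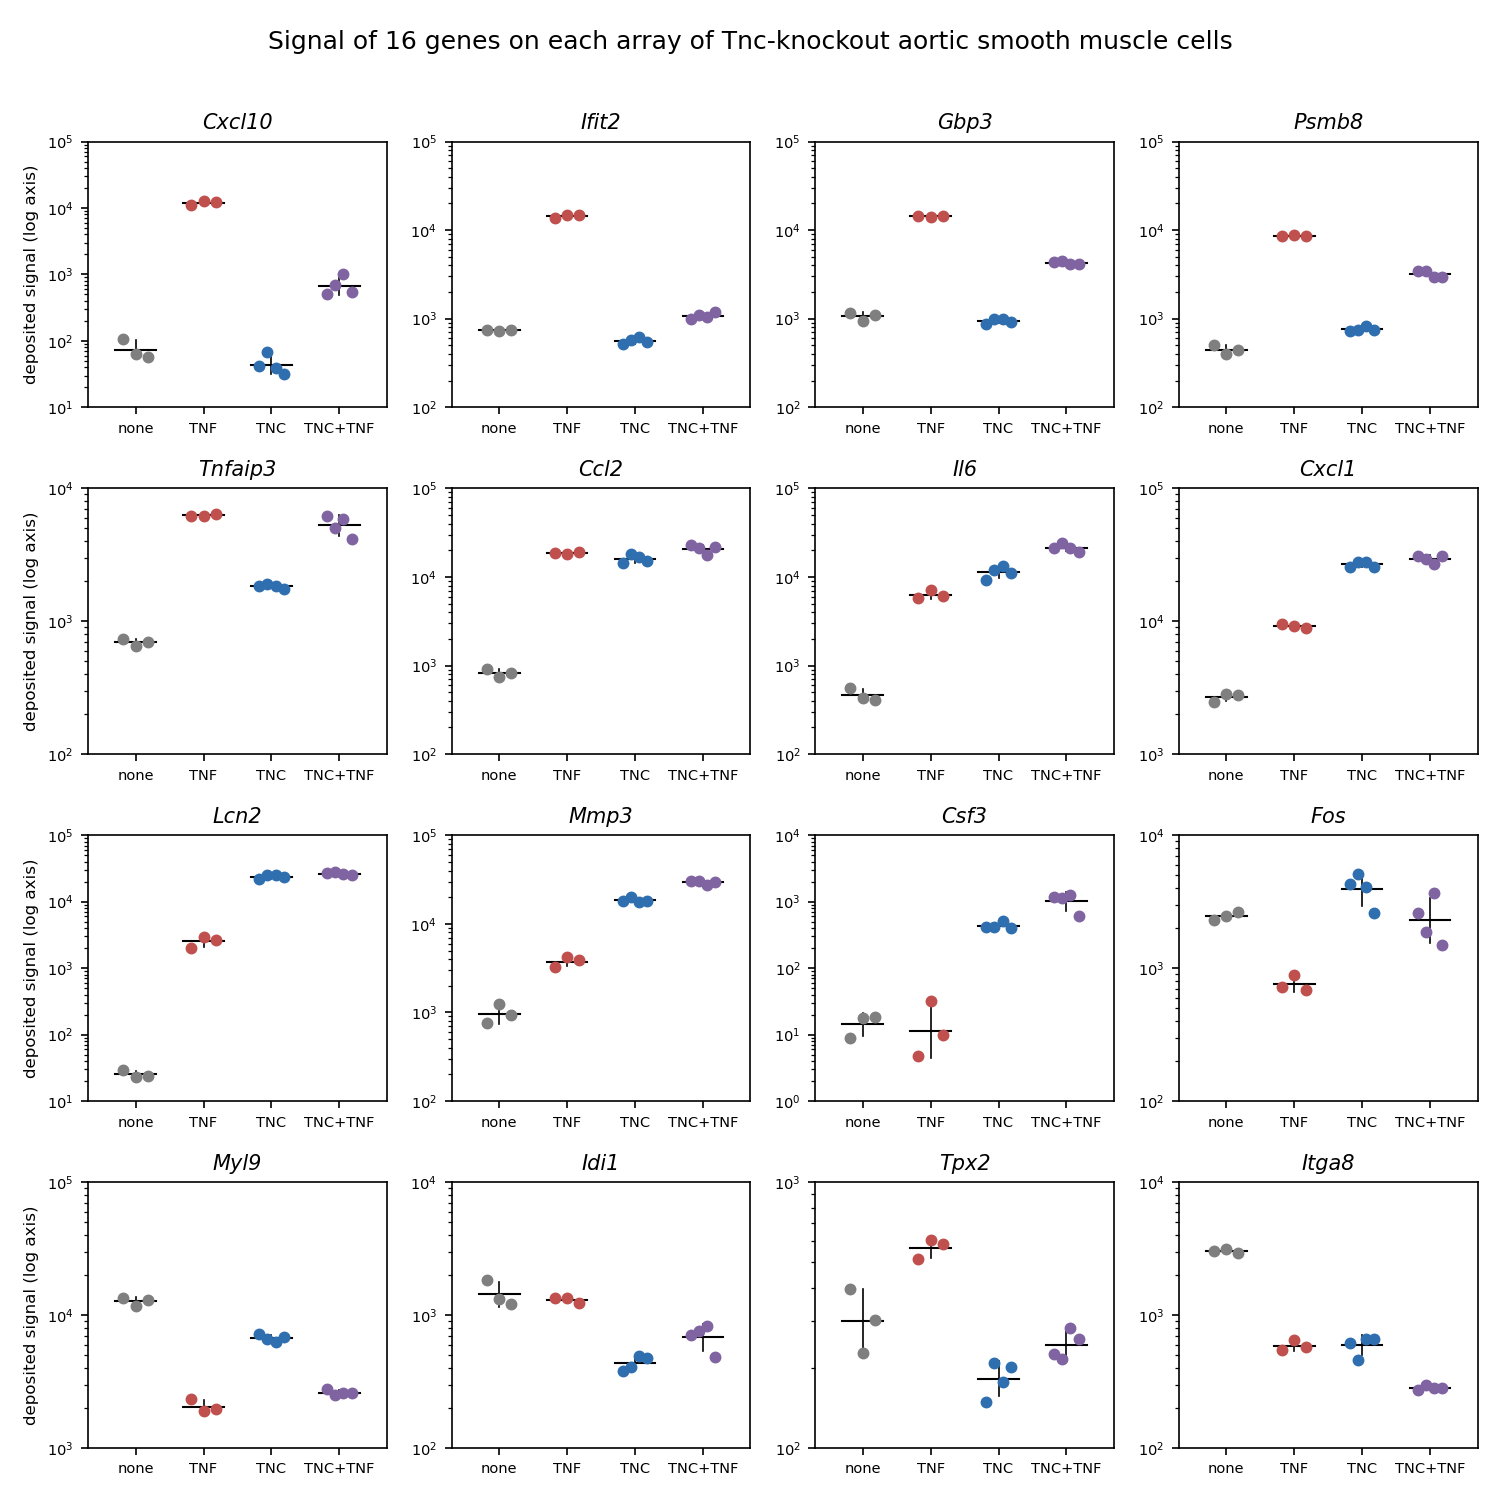
Deposited signal (log axis) of 16 genes on every array of TNC-KO aortic smooth muscle cells, unstimulated (grey, 3), with TNF (red, 3), TNC (blue, 4) or both (purple, 4). Dots are arrays, horizontal bars geometric means and vertical bars 1 SD of log2 signal. For Ifit2 the TNC arrays (511, 582, 623 and 550.2) lie a little below the unstimulated ones (737, 731 and 755), whereas for Lcn2 they lie 9.38-fold above the TNF arrays.

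The chemokines of T cells were higher with TNF. Cxcl9, Cxcl10 and Cxcl11 attract activated T cells through the receptor CXCR3. Cxcl10 read 11209, 12561 and 12478 with TNF, 42.0, 67.7, 38.6 and 32.0 with TNC and 108, 64.1 and 58.1 unstimulated. TNC arrays stayed in or below the unstimulated range, and the 278-fold gap was the widest among called genes whose brighter group reached the 50th percentile of signal (-8.12, SE 0.30, adjusted p = 6.71e-09). The TNC arrays are dim here, so the fold depends on the floor, and with 32 added to every value the difference was -7.31. Cxcl9 read 3075, 3485 and 2722 with TNF and 67.5, 81.1, 39.0 and 34.5 with TNC, above unstimulated arrays at 1.29, 1.36 and 3.0. Both stimuli raised it, and they differed 59.1-fold. Cxcl11 was called higher with TNF (-3.58), as were Cx3cl1, a membrane-bound chemokine (-1.61), and Cxcl16 (-0.93). Ccl5, the sixth gene on this list, read 18049, 19122 and 18789 with TNF and 4453, 4785, 4652 and 4272 with TNC. The groups did not overlap, but the gene was not called (-2.04, SE 0.76, adjusted p = 0.067), as unstimulated arrays at 85.6, 4.94 and 80.9 spread widely in the same fit. It was called when the 7 arrays were fitted alone, when 32 was added to each value and under the stricter filter.

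Most genes on the list of neutrophil-attracting CXC chemokines lay the other way. Of 6 tested, 4 were called higher with TNC and 1, Pf4, a platelet chemokine, higher with TNF (-0.51). Of all tested genes 18.2% were called higher with TNC and 10.4% higher with TNF. Cxcl1 read 25770, 28160, 27820 and 25699 with TNC, 9550, 9244 and 8839 with TNF and 2481, 2839 and 2775 unstimulated, and no groups overlapped. TNC exceeded TNF 2.92-fold (1.54, SE 0.07). Cxcl5 read 1035, 1124, 707 and 1218 with TNC, 103, 150.1 and 116 with TNF and 11.4, 12.9 and 10.8 unstimulated, an 8.25-fold excess with TNC. Cxcl2 differed by 1.52. Cxcl15 was lowered by both, less by TNC (-0.96) than by TNF (-1.96). The CC chemokines showed no common direction, with 1 of 12 called higher with TNC and 4 with TNF (2 without TNF array 2). Ccl2, the main monocyte attractant, read 18850, 17982 and 19234 with TNF, 14500, 18232, 16658 and 15019 with TNC and 908, 751 and 831 unstimulated. The stimuli overlapped at this gene. Their difference was -0.22, with a 95% interval from -0.45 to 0.01, and it passed the threshold only after quantile normalization (-0.23). Ccl20, which attracts cells with CCR6, was higher with TNF (-1.75), and Ccl7 was too (-0.79; not called without TNF array 2, at -0.76). Ccl3 was higher with TNC (3.39, and not called when only the 7 arrays were fitted).

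NF-kB genes answered both stimuli, with the larger response to TNF in most. Of 17 subunits, inhibitors and feedback genes, TNF raised 17 (median 2.13) and TNC raised 16 (median 1.31). Over all tested genes TNF raised 14.3% and TNC 16.1%. Head to head, 12 were called higher with TNF and 2 higher with TNC, where 10.4% and 18.2% of all genes were. Tnfaip3 encodes A20, the enzyme that edits ubiquitin chains to shut the pathway off. It read 6250, 6214 and 6364 with TNF, 1841, 1913, 1832 and 1748 with TNC and 738, 652 and 702 unstimulated. The groups were apart, and TNF was 3.42-fold above TNC (-1.78, SE 0.11). The inhibitor Nfkbie differed by -2.48, the partner of A20 Tnip1 by -1.48, the noncanonical subunit Relb by -1.03 and the ubiquitin ligase Birc2 by -1.23. Nfkbiz, the nuclear cofactor IkB-zeta, which switches on a subset of secondary genes that includes Lcn2, ran against them. It read 5657, 5272, 6386 and 6967 with TNC, 1702, 1823 and 1717 with TNF and 654, 703 and 643 unstimulated. Every TNC array was above every TNF array (3.46-fold, 1.79); a second probe set gave 2.07 and another, dimmer one -0.34. Map3k8, the kinase that links this pathway to ERK and a list member named after its values were seen, was the other (1.87).

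Acute phase genes had the largest median towards TNC after the neutrophil chemokines. Of 14 tested genes of this list and the C/EBP factors, 9 were called higher with TNC, where 18.2% of all genes were, and 1 with TNF (median 1.13). TNC raised 12 of them over unstimulated cultures (median 3.07) and TNF 9 (median 1.71), where they raised 16.1% and 14.3% of all genes. Lcn2, a lipocalin that withholds iron from bacteria, read 21868, 25021, 24803 and 23146 with TNC, 2025, 2965 and 2683 with TNF and 29.0, 23.4 and 23.7 unstimulated. The groups lay far apart, with TNC 9.38-fold above TNF (3.23, SE 0.12, adjusted p = 7.11e-09). Steap4, a metalloreductase, read 679, 835, 829 and 651 with TNC, 34.5, 114 and 167 with TNF and 87.3, 31.4 and 40.4 unstimulated. TNF and unstimulated arrays overlapped and did not differ by the test (0.86, adjusted p = 0.263), and TNC stood above both (3.10). Cp, the copper oxidase ceruloplasmin, differed by 1.49, Saa1 by 3.02, and the transcription factor Cebpd by 1.12. Saa3 was raised by both, to 22028, 24009, 26455 and 24354 with TNC and 8146, 12620 and 12021 with TNF from 23.5, 42.1 and 92.8. The excess with TNC was 1.17 (adjusted p = 0.027) and was lost when any of 5 arrays was left out: TNF array 1 or 3 (0.97 and 1.25) or TNC array 2, 3 or 4 (1.17, 1.13 and 1.17). Ptx3, the long pentraxin, was the member higher with TNF (-0.45). It was named after its values were seen.

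The C/EBP letters TTGCNNAA, searched on both strands as above, were in 10.5% of all genes with a promoter. They were in 8 of the 11 acute phase genes that have one (72.7%). They were in 11.3% of genes at least 2-fold higher with TNC and 13.3% of those at least 2-fold higher with TNF. The STAT letters TTCNNNGAA (GAS element) were in 8.51% of all, 6.83% of the first set and 9.63% of the second. The 250 bases upstream of Lcn2 (minus strand, chr2:32387740-32387989) and Steap4 (plus strand, chr5:7960222-7960471), in GRCm38.p6 from RefSeq, show where the letters lie in 2 genes of the list called higher with TNC, and were chosen after the matches were seen. Capitals mark the C/EBP letters in Lcn2, at 216 bases before the start. In Steap4 they mark the GAS letters at 116 and the C/EBP letters at 87 bases before it.
Lcn2: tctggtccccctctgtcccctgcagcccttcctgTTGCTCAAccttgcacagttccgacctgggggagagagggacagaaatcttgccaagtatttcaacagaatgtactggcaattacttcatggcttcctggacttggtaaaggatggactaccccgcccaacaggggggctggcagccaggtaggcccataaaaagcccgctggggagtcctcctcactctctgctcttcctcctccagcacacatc
Steap4: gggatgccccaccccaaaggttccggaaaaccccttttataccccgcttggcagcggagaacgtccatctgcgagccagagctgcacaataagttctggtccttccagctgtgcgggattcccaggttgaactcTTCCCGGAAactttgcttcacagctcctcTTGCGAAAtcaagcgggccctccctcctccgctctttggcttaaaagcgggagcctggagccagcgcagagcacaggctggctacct

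Among cytokines, colony-stimulating factors and their kin, 5 of 20 tested were called higher with TNC and 7 higher with TNF. Over all tested genes 18.2% and 10.4% were, so the count towards TNC is near the general rate. That count was 3 without TNF array 1 or 3 or TNC array 3 or 4. Csf3 (G-CSF), the growth factor of neutrophils, read 414, 411, 517 and 406 with TNC, 4.81, 31.6 and 9.72 with TNF and 9.0, 17.5 and 18.6 unstimulated. TNF arrays overlapped unstimulated ones, and TNC arrays were above every other array of the 3 groups (5.26, SE 0.52, or 3.34 with 32 added to each value). Tnfsf11 (RANKL), the osteoclast factor, differed by 3.50 and was not called as changed by TNF (1.52). Il6, the cytokine that drives hepatic acute phase synthesis, read 9276, 12033, 13195 and 11218 with TNC, 5794, 7116 and 6178 with TNF and 552, 435 and 412 unstimulated. All TNC arrays exceeded all TNF arrays, by 0.84 (adjusted p = 0.000868). The other direction held Tnfsf10 (TRAIL), a death ligand (-4.36), Il15, a growth factor of natural killer and memory T cells (-2.58), Il7, a lymphocyte growth factor (-1.44), and Csf1, that of macrophages (-0.94). TNC lowered Tnfsf10 (-1.49) and Il15 (-1.36), and TNF raised them (2.88 and 1.23).

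Cd14, the co-receptor that hands lipopolysaccharide to Toll-like receptor 4, read 1060, 1451, 1957 and 1262 with TNC, 158, 159 and 201 with TNF and 134, 126 and 93.7 unstimulated. TNC arrays were far above the rest (3.02), and the change with TNF did not pass the test (0.56, adjusted p = 0.0599). Tlr2 was raised by both and was higher with TNF (-1.81), and Tlr3, the sensor of double-stranded RNA, was raised by TNF (2.82), was not called with TNC (0.17) and differed by -2.65. Over the 20 receptors and adaptors of this list, 5 were called higher with TNC, against 18.2% of all tested genes, and 6 with TNF, against 10.4%. The latter count was 3 without TNF array 2 or 3 or TNC array 1. Of 10 leukocyte adhesion molecules 3 and 5 were. Madcam1, the ligand of a gut-homing integrin, differed by -3.52. Vcam1, the ligand of VLA-4, was raised by TNF (1.05) and not called with TNC (0.14), a difference of -0.91. Mcam, an adhesion molecule of vessel wall cells, was higher with TNC (1.37), as it was lowered more by TNF (-1.83) than by TNC (-0.46). Complement factor B, Cfb, was raised by both and was higher with TNF (-1.66).

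**Figure D3:**
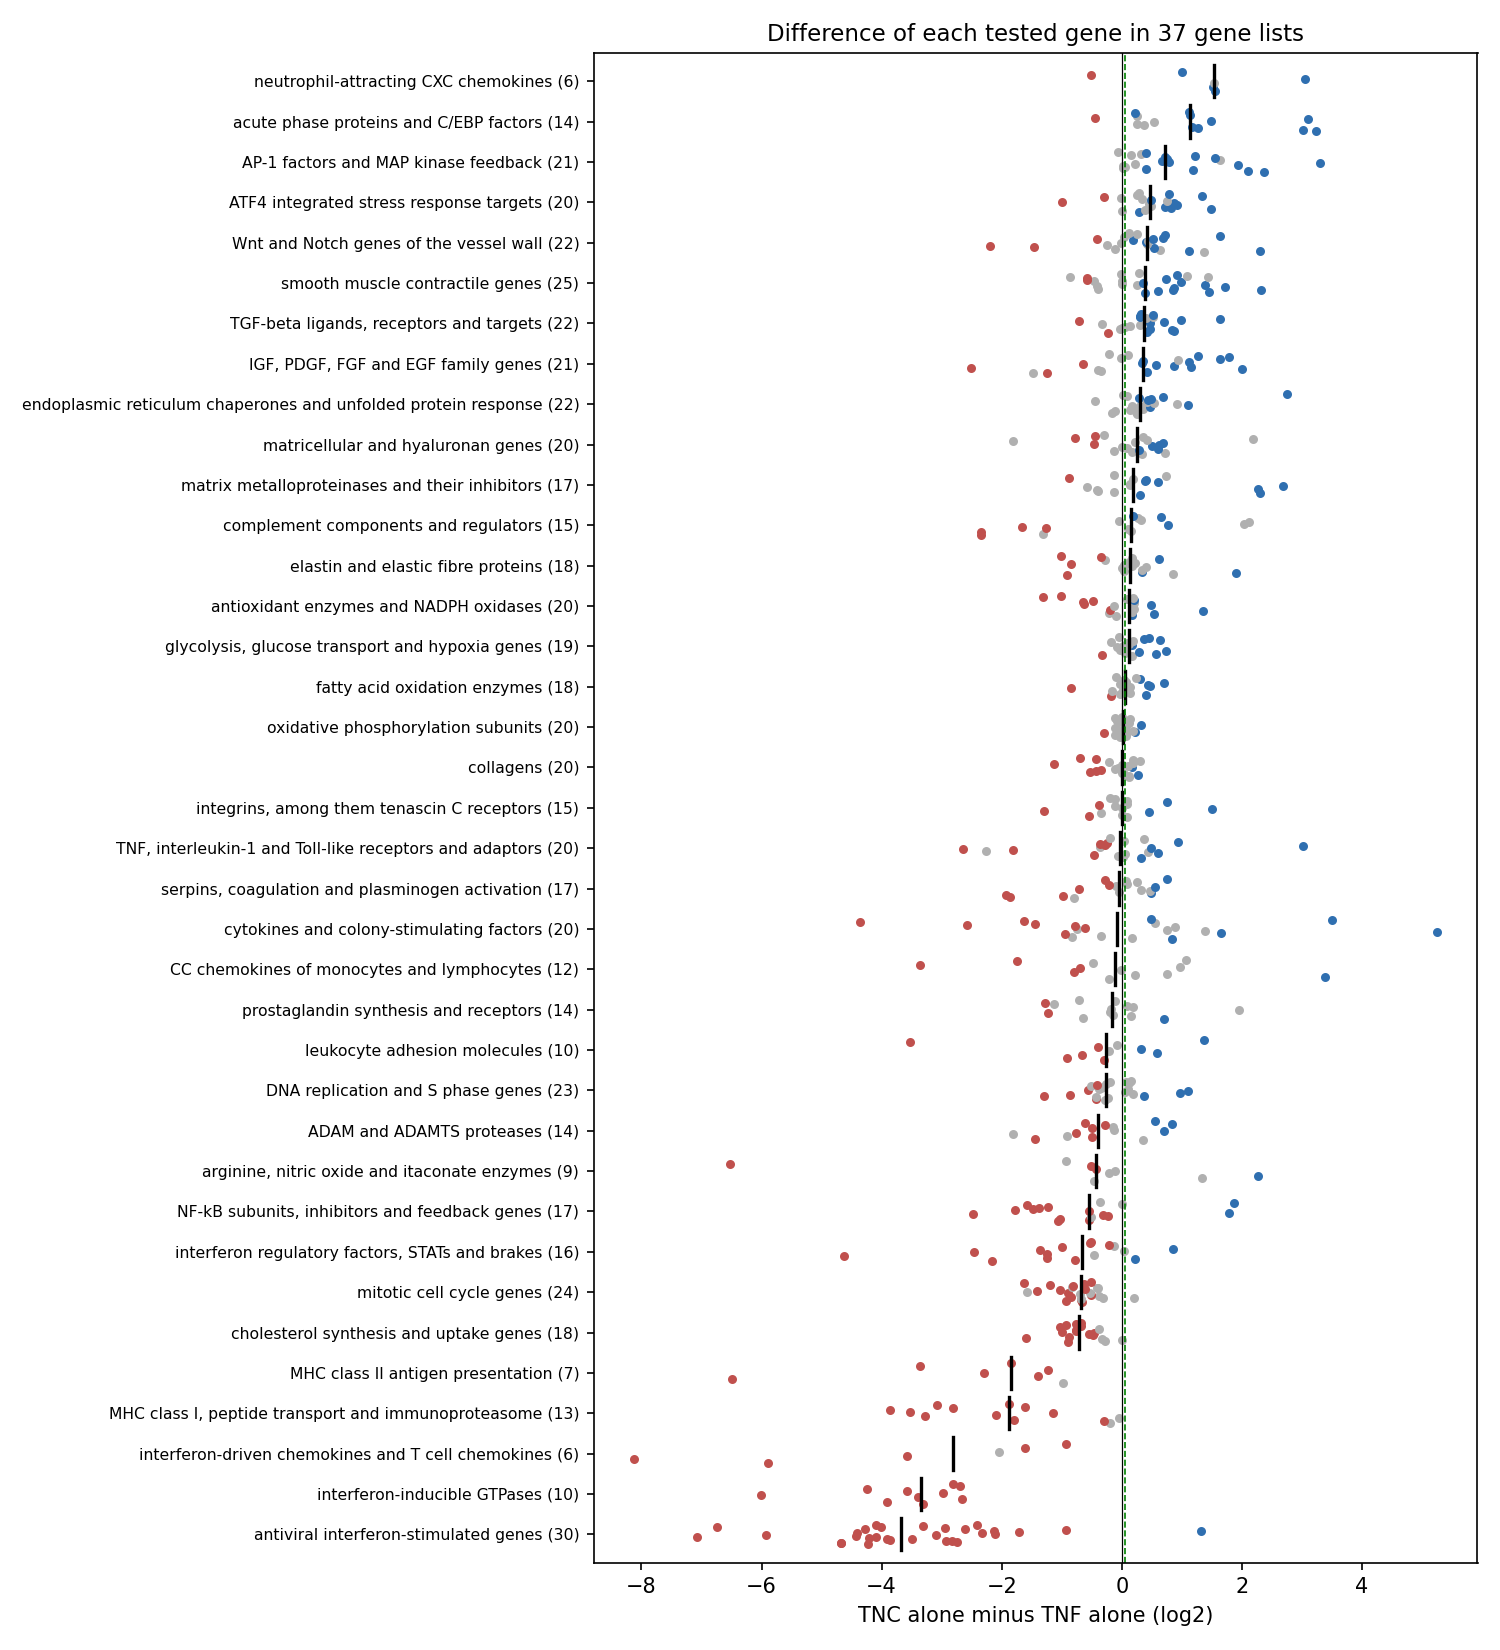
Dots are the tested genes of 37 gene lists (number in brackets), placed by TNC alone minus TNF alone (log2). Blue dots were called higher with TNC, red ones higher with TNF and grey ones not called. Black bars are list medians and the green dashed line is the median of all tested genes (0.05). The antiviral list lies at -3.68 and the acute phase list at 1.13.

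Of the 3 stromelysins, Mmp3 and Mmp11 were called higher with TNC. Mmp10, stromelysin 2, was dim and not called (-0.42, adjusted p = 0.622), and it was named after its values were seen. Mmp3, stromelysin 1, which cleaves proteoglycans and other metalloproteinases, read 17882, 20136, 17533 and 18160 with TNC, 3262, 4183 and 3861 with TNF and 755, 1244 and 944 unstimulated. Both stimuli raised it and TNC exceeded TNF 4.91-fold (2.30, SE 0.14). Mmp11, stromelysin 3, read 4516, 4506, 3998 and 3704 with TNC, 841, 834 and 907 with TNF and 1133, 2098 and 2051 unstimulated. TNC raised it (1.30) and TNF lowered it (-0.98). In all 7 of 17 metalloproteinases and inhibitors were called higher with TNC and 1 with TNF. That gene was Timp3, the matrix-bound inhibitor (-0.89), which TNC lowered by more (-1.85 against -0.97). Timp1 was higher with TNC (0.40). Among ADAM and ADAMTS proteases 3 of 14 were called higher with TNC, a share near the 18.2% of all genes, and 6 with TNF, where 10.4% of all were. The TNF-led ones included the aggrecanase Adamts4 (-1.45) and Adam17, the sheddase that releases TNF (-0.62). Elastin, Eln, read 351, 336, 589 and 512 with TNC, 655, 898 and 919 with TNF and 10434, 7664 and 8048 unstimulated. Both stimuli lowered it, TNC further (-0.91, adjusted p = 0.0122); the difference was not called without TNF array 3 (-0.82), nor with the most variable probe set (-1.60). The elastic fibre glycoprotein Fbln1 was higher with TNC (1.90). The collagens gave 2 and 6 calls of 20 and a median of 0.00, with 1 called higher with TNC when TNF array 1 or TNC array 1 or 3 was left out.

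Many contractile genes fell with each stimulus, and more of them were called higher with TNC than with TNF. TNC lowered 14 of 25 smooth muscle contractile genes and raised 0, and TNF lowered 17 and raised 0. Over all tested genes TNC lowered 15.7% and TNF 20.3%. Head to head 12 were called higher with TNC and 2 higher with TNF (median 0.39), where 18.2% and 10.4% of all genes were. Myl9, the regulatory myosin light chain, read 7246, 6558, 6272 and 6810 with TNC, 2329, 1881 and 1955 with TNF and 13449, 11787 and 12886 unstimulated. The groups did not overlap, and the difference was 1.71 (SE 0.08). Actg2 differed by 1.46 and Tpm2, a tropomyosin, by 0.98. Srf, the factor that drives contractile genes, was lowered by TNF (-0.95) and not called with TNC (-0.02), a difference of 0.93. Acta2, smooth muscle actin, differed by 0.39. The myosin heavy chain Myh11 was lowered by both, -2.68 with TNC and -2.27 with TNF, and its direct difference of -0.40 did not pass the test (adjusted p = 0.161, 95% interval -0.84 to 0.04). A CArG box, the binding motif of SRF, was found in 1.57% of all genes with a promoter and in 4 of the 21 contractile genes with one (19.0%). For other lists the share of genes with the matching letters varied. The AP-1 letters were in 0 of 15 immediate early and MAP kinase feedback genes. The E2F letters TTTNGCGC were in 1 of 20 mitotic genes, against 2.53% of all genes with a promoter, and in 6 of 19 DNA replication genes (31.6%). The sterol regulatory element, ATCAC, any base, CCAC, was in 0 of 14 cholesterol genes and in 0.202% of all.

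Immediate early genes and MAP kinase feedback genes showed 1 direction of call. Of 21 tested, 13 were called higher with TNC and 0 higher with TNF, at a median of 0.73. Of all tested genes 18.2% were called higher with TNC and 10.4% higher with TNF. Egr3, an early growth response factor, read 308, 354, 411 and 357 with TNC, 22.1, 44.7 and 47.8 with TNF and 763, 740.2 and 655 unstimulated. Both stimuli lowered it, TNF far more, so TNC exceeded TNF 9.84-fold (3.30), while a second, dim probe set differed by -0.30. Egr1 read 6394, 7786, 8458 and 5078 with TNC, 1752, 1728 and 1861 with TNF and 6869, 6422 and 7544 unstimulated. TNC arrays overlapped the unstimulated range and TNF arrays lay below it (1.93). Fosl1, an AP-1 subunit, was raised by both and higher with TNC (1.19). The ERK phosphatases Dusp6 (0.73) and Dusp4 (0.75) were also higher with TNC.

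Over all tested genes 18.2% were called higher with TNC and 10.4% higher with TNF, and the growth factor and patterning lists are read against those shares. Against unstimulated cultures TNF lowered 12 of 21 genes of the IGF, PDGF, FGF and EGF families and TNC 5, where TNF lowered 20.3% and TNC 15.7% of all genes. Head to head 11 were called higher with TNC against 3 with TNF. Hbegf, a heparin-binding EGF ligand, differed by 1.78, Pdgfa by 0.87 and Fgf2 by 1.11. Igfbp5, which binds insulin-like growth factors in the matrix, read 172, 229.5, 171 and 196 with TNC, 971, 1158 and 1131 with TNF and 502, 459 and 497 unstimulated. TNC lowered it and TNF raised it, so they differed by -2.51 (SE 0.10). In the TGF-beta list 12 of 22 were higher with TNC and 2 with TNF, the latter 1 without TNF array 2 or 3 or TNC array 1 or 2. Id1, a target of BMP signals, was lowered by TNF (-1.92) and not called with TNC (-0.28). Wnt and Notch genes gave 9 and 3 calls of 22. Hes1, the Notch target, differed by 1.64. Wnt4 was raised by TNC (0.80) and lowered by TNF (-1.50). The Wnt antagonists Dkk2 (-2.20) and Sfrp2 (-1.47) were lower with TNC.

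Many mitotic and cholesterol genes were lower with TNC than with TNF. TNC lowered 22 of 24 mitotic cell cycle genes (median -1.15), and TNF lowered 7 and raised 1 (median -0.47). Over all tested genes TNC lowered 15.7% and TNF 20.3%. Head to head 14 were called higher with TNF, where 10.4% of all genes were, and 0 higher with TNC, where 18.2% were. That count was 9 without TNF array 1 or 2, without TNC array 1, or with the most variable probe set of each gene. Tpx2, a spindle assembly factor, read 148, 208, 177 and 201 with TNC, 512, 608 and 584 with TNF and 395, 228 and 302 unstimulated. TNC arrays were below all others and TNF arrays above all others, a difference of -1.64. In the rise with TNF Tpx2 is not typical. Its change over unstimulated cultures, 0.91, was the highest of the list, where the median was -0.47. Cenpe, a kinetochore motor, differed by -1.41 and Birc5 (survivin) by -0.82. Genes of DNA replication and S phase split less: of 23 tested, 5 were called higher with TNF and 3 higher with TNC. The shares of all genes were 10.4% and 18.2%. Against unstimulated cultures TNC lowered 13 of the 23 and TNF 11, where they lowered 15.7% and 20.3% of all genes. Of 18 cholesterol synthesis and uptake genes 14 were called higher with TNF and 0 higher with TNC (median -0.72). TNC lowered 16 and TNF 3. Idi1, which isomerises the isoprene unit, read 379, 405, 488 and 474 with TNC, 1353, 1348 and 1222 with TNF and 1827, 1321 and 1208 unstimulated. All TNC arrays were below every other array, and TNF arrays overlapped unstimulated ones (-1.59). Hmgcs1, the enzyme that makes HMG-CoA, differed by -0.90, Insig1, the sterol-sensing brake, by -0.93 and Nsdhl by -0.77. The number of the list's genes higher with TNF was 9 with the most variable probe set.

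Of 20 targets of ATF4, the factor of the integrated stress response, 9 were called higher with TNC and 2 with TNF (1 without TNF array 2). Over all tested genes 18.2% and 10.4% were, and the other lists of this paragraph are read against the same shares. TNC raised 15 of these targets and TNF 6 over unstimulated cultures, where they raised 16.1% and 14.3% of all genes. Chac1, which degrades glutathione, differed by 1.48 and Ddit4, an inhibitor of mTOR, by 0.78, while Slc7a11, the cystine importer, was higher with TNF (-0.99). Chaperone and unfolded protein response genes gave 7 and 0 calls of 22, among them Herpud1 (1.11) and Xbp1 (0.43) higher with TNC. Antioxidant enzymes and NADPH oxidases gave 5 and 6 calls of 20, the first being 3 without TNF array 1 or 2 or TNC array 2. The NADPH oxidase subunits Cybb (-1.32) and Cyba (-1.02) were higher with TNF. Arg2, the mitochondrial arginase, was raised by both and more by TNC (2.26). Glycolysis and hypoxia genes gave 7 and 1 calls of 19, with 16 raised by TNC and 14 by TNF. Oxidative phosphorylation gave 2 and 1 of 20, with every difference between -0.29 and 0.31. The 2 became 1 without TNF array 1 or 2 or TNC array 1, 2 or 4. The remaining large TNC-led genes were Vnn3, a vanin of the pantetheinase family (5.40), Inmt, a methyltransferase (3.69), Wfdc17 (3.19), Pla2g7, a lipoprotein-associated phospholipase (3.67), Ahsg, fetuin A (3.09), Rassf10 (3.68) and Gdpd2 (3.55). Inmt read 371, 463, 1285 and 533 with TNC, 35.0, 46.9 and 57.1 with TNF and 2566, 2956 and 2841 unstimulated. It was lowered by both stimuli and by TNF the further.

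**Figure D4:**
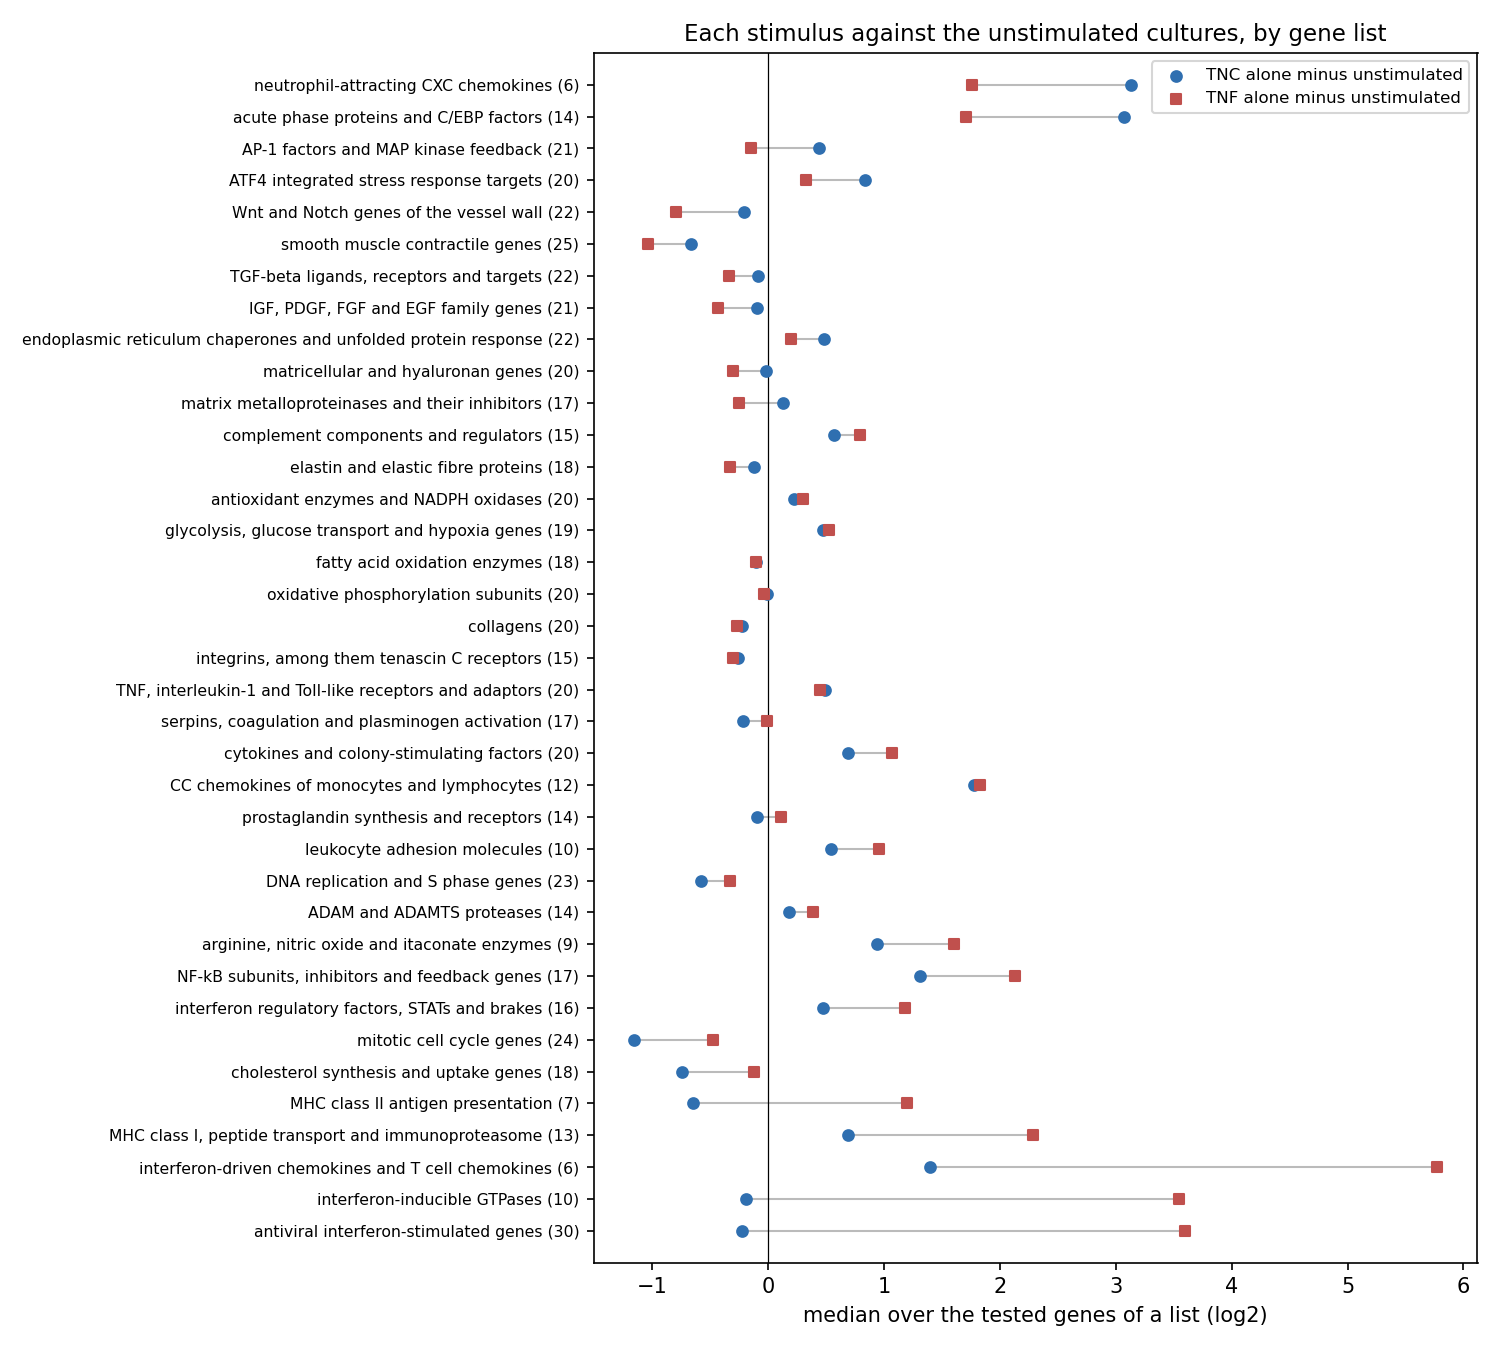
Median log2 difference from the unstimulated cultures over the tested genes of 37 lists (number in brackets), for TNC alone (blue circles) and TNF alone (red squares), in the order of their direct difference. Both comparisons share the 3 unstimulated arrays. For the interferon-inducible GTPases the medians are -0.19 and 3.55, for the acute phase genes 3.07 and 1.71.

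Other genes differed little between the stimuli. Among genes called and moved at least 2-fold by each stimulus in the same direction, the 10 raised and the 10 lowered whose 95% interval of the direct difference reached least far from 0 were taken, so the intervals describe the choice and carry no test. Rnd1 read 1818, 2128, 1979 and 1972 with TNC, 1924, 2098 and 1893 with TNF and 827, 904 and 882 unstimulated. The stimulated groups overlapped and lay above every unstimulated array, and their difference was 0.00 with an interval from -0.16 to 0.16. Irak3, the inactive kinase that restrains Toll-like receptor signals, read 348, 377, 368 and 359.8 with TNC, 344, 358 and 357 with TNF and 93.2, 95.4 and 95.4 unstimulated. Its interval ran from -0.14 to 0.22. Traf2, an adaptor of the TNF receptors, had an interval from -0.21 to 0.21, Osmr, the oncostatin M receptor, from -0.10 to 0.23 (though its most variable probe set differed by 0.51, adjusted p = 0.044), and the metallothionein Mt2 from -0.06 to 0.22. Cav2, a caveolin, read 4162, 3698, 3966 and 3815 with TNC, 4067, 4272 and 3526 with TNF and 8243, 8564 and 8600 unstimulated. Both groups lay below the unstimulated arrays and overlapped each other, with an interval from -0.19 to 0.16. Itga8, an integrin subunit that pairs with beta 1 to bind tenascin C and other ligands, read 620.2, 458, 662 and 658 with TNC, 542, 649 and 579 with TNF and 3040, 3146 and 2915 unstimulated. Its interval was -0.24 to 0.27, and a dim second probe set differed by -0.33. Cavin2, a coat protein of caveolae, had an interval from -0.22 to 0.23. Of the 20 genes, Mrps6 was called as different (0.19, 0.09 to 0.30). The others were not called, which does not show that they respond equally beyond these intervals.

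**Figure D5:**
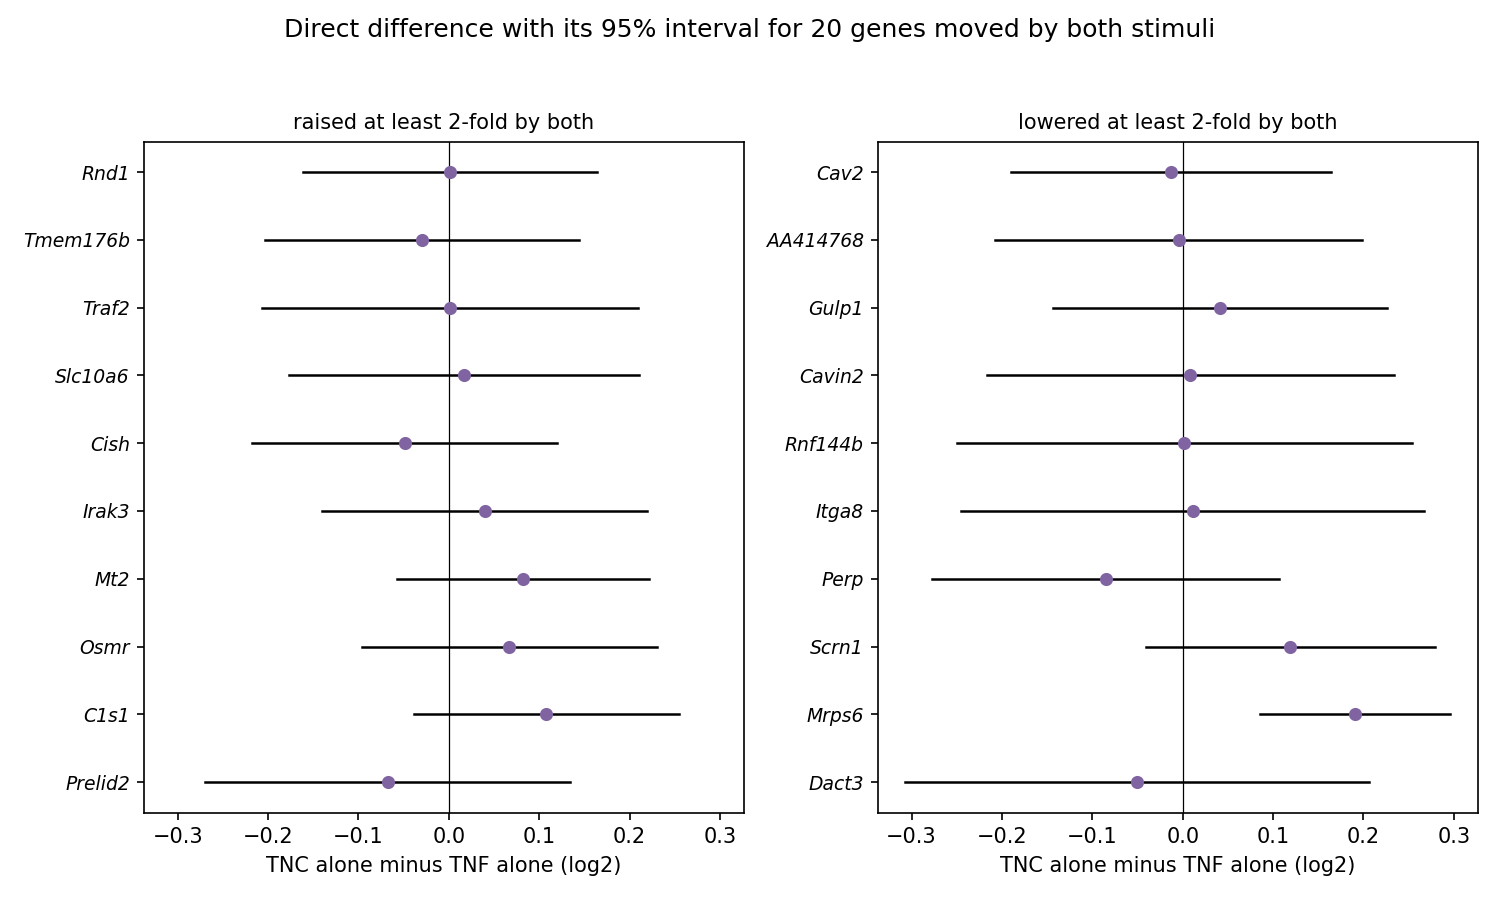
Direct difference, TNC alone minus TNF alone (log2, dots), with its 95% interval (lines) for the 10 genes raised (left) and the 10 lowered (right) at least 2-fold by both stimuli whose intervals reach least far from 0. Rnd1 lies at 0.00 and Mrps6 at 0.19, the 1 interval that does not cross 0.

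Markers of the labelled cell type and of other cells were read in the same arrays. The summed signal of 8 smooth muscle markers ranged from 52321 to 55662 unstimulated, 39675 to 42043 with TNC and 25920 to 28325 with TNF, and 5 of the 8 were called higher with TNC. Of all tested genes 18.2% were called so. Most of the sum was Acta2, Tagln and Myl9. Mylk and Myh11 had lower means with TNC (382.1 and 53.29) than with TNF (507.8 and 70.43), and neither was called. The 8 endothelial markers summed to 19869 to 22391 unstimulated, 21529 to 23355 with TNC and 18875 to 19912 with TNF. Head to head 3 of the 8 were called higher with TNC. Most of the sum was Emcn, and Kdr was dim, at 52.18 to 79.08 with TNC and 44.5 to 98.12 with TNF. Vwf, von Willebrand factor, was 1739 to 1913 with TNC and 623.7 to 668.5 with TNF, 2.83-fold apart. Emcn, a sialomucin of endothelium, was 11486 to 12273 with TNC and 9803 to 10397 with TNF, and Pecam1 4273 to 5065 and 3792 to 4200. Cdh5 and Egfl7 lay the other way without overlap, at 1928 to 2245 and 1316 to 1606 with TNC and 2311 to 2366 and 1641 to 1789 with TNF, and were not called (adjusted p = 0.163 and 0.0711). The 6 fibroblast markers summed to 11018 to 12861 unstimulated, 24733 to 27084 with TNC and 23836 to 24847 with TNF. Most of the sum was Dcn, and the members had no common direction. Head to head 2 were called higher with TNC and 2 higher with TNF. Pdgfra was 3967 to 4576 with TNC and 6290 to 7278 with TNF. Cd34 fell from 2486 to 2650 unstimulated to 1127 to 1497 with TNC and 1454 to 1712 with TNF. The 9 macrophage markers summed to 952.1 to 1227 with TNC, 804.9 to 885.6 with TNF and 771 to 1182 unstimulated, and none of the 7 tested was called by limma head to head. The leukocyte antigen Ptprc lay at 5.25 to 20.2 with TNF and 7.29 to 13.4 with TNC, near the lowest signals. The 6 T and B cell markers summed to 125.4 to 139.1 with TNF and 90.24 to 162.1 with TNC. The 5 neutrophil markers summed to 428.9 to 637.1 with TNC, 294.5 to 303.7 with TNF and 83.31 to 117.7 unstimulated. Camp gave 241.9 to 290.6 with TNC and 185.6 to 232.3 with TNF, and S100a8 gave 139.4 to 310.8 and 24.4 to 48.2. S100a9 and Mpo were dim and overlapped between the stimuli, and 1 of the 4 tested markers was called higher with TNC. The neutrophil granule gene Elane was 7.90 to 35.3 with TNC and 17.2 to 43.5 with TNF. The 4 fat cell markers summed to 6839 to 8458 with TNC and 1396 to 1597 with TNF, nearly all of it Fabp4, which was called higher with TNC (2.39). Adipoq, the adiponectin gene, was called higher with TNF, at 65.54 to 95.93 against 16.64 to 38.24 with TNC (-1.68), and Lep was at 1.97 to 3.53 with TNC and 3.07 to 4.89 with TNF. Whether the share of endothelial or other cells plays a part in the differences was not tested.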

How the data were processed

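RNA of the cultured cells was hybridised, 1 sample to an array (14 arrays), to Mouse Genome 430 2.0 arrays after biotin labelling, per the labels' protocols. The authors deposited intensity, linear and with a single value per probe set (45101 in all), made with Affymetrix Expression Console per the submitters' processing notes. Neither its version nor its algorithm is given in the sources used here. Averaged over their middle 96%, the probe sets come to 500.0 on every array, while medians of the cell arrays run from 51.01 to 64.61. Arrays thus share a mean and not a distribution. Centring each array on its median shifts all differences of a comparison together, and quantile normalization does not. With the latter the head to head median went from -0.541 to -0.574 for the NF-kB list. For the metalloproteinase list it went from 0.186 to 0.212.

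The deposited intensity was used as log2, without pseudocount. Left out were 64 control probe sets, 932 that carry several symbols and 9160 that carry no name, and the probe set with the highest mean stood for each of 18193 genes. Genes at or above percentile 30 of the array in at least 3 cell arrays were tested, 15534 in number. All 4 groups were fitted in limma 3.58.1 under R 4.3.3 (10 residual degrees of freedom), and adjusted p-values are limma's. On simulated data (200 of 15534 genes changed, TNC minus TNF) 71% were recovered at a log2 change of 1 and 78% at 2, and 6.88% of calls were false. Far more genes, 28.6%, were called in the real comparison, so neither rate carries over to it.

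Members and gene lists were chosen with earlier results of these data known. Named genes are the 15 largest called differences each way whose arrays do not overlap and whose brighter group reaches the 50th percentile, up to 6 members of each list with the lowest adjusted p, the 10 raised and 10 lowered by both stimuli with the narrowest reach of the direct interval, and a few fixed genes. Tnf and other genes that failed the filter were not tested. Alternatives were other scalings, filters, probe set choices, log2(value + 32), other variance models, the 7 arrays alone, a replicate block and leaving out each array. Promoters came from RefSeq, and motifs were searched in Python 3.11.15.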

Additional observations from a re-analysis of the deposited data

Results flagged for a closer look

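In 8 of 269 named genes, 1 of the 4 arrays with TNC alone stood far from the other 3, with a gap to the nearest of them beyond Dixon's 95% critical share of the whole range. Chance flags about 1 in 20 such groups. Array 3 read 517.1 for Csf3. Array 2 read 46.86 for Ifit1bl1 and 7.346 for H2-Eb1, a class II beta chain. Array 1 read 327.6 for Col10a1, a collagen, 274.9 for Bambi, a decoy receptor of the TGF-beta family, 8130 for the integrin subunit Itgav and 823.2 for Itgb3. Array 4 read 3193 for Pdgfa. The differences between TNC and TNF of these genes kept their direction without that array.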

How the results depend on the processing

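Head to head, the counts of called genes stayed within 1.5 times of 2820 and 1620 under every alternative run, from 1935 to 3096 higher with TNC and from 1102 to 1769 higher with TNF. Fewer of the same genes were shared where another probe set was read: 58.7% and 58.8% of the calls with the most variable probe set, 62.1% and 65.3% with the mean of all probe sets. Among at least 2-fold differences, adding 32 before the log left 228 higher with TNC, and 351 lowered by TNC against unstimulated cultures. Centring each array on its median gave 3986 raised and 1246 lowered by TNC, and 1941 lowered by TNF. The most variable probe set gave 1623 raised and 1581 lowered by TNC, and 1327 and 2055 by TNF. Single genes turned direction in these cases: Il1r1 with the mean of probe sets (-0.18), Edem1 (-0.33), Srxn1 (0.33) and Ndufb8 (0.086) with the most variable probe set, and Pfkp with both (-0.33 and -0.0013). The cause was not tested. Leaving out 1 array gave 2198 to 2615 genes higher with TNC and 1261 to 1598 higher with TNF. With a replicate block the counts were 2488 and 1445. Deviations from group means of cell arrays with the same number correlated at -0.016 to 0.057. These values do not decide whether arrays with the same number came from the same culture. Such deviations also hold the noise of each array, and arrays with different numbers were not compared in this way. Over the 269 named genes and all alternatives, 4393 values kept direction and side of the threshold, 116 lost the call, 17 gained it and 6 reversed, while 26 changed sign without a call or, for genes picked for similar responses, moved by more than 1 SD between arrays. Depth has no meaning for arrays, and log2 differences of dim genes such as Gbp8, Csf3 and H2-Aa, or of genes dim in 1 group such as Cxcl10, depend on the floor.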
